A study of Homo sapiens with 78 samples.

Results

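The 28 genes described here encode enzymes and regulators of cholesterol and fatty acid synthesis, and were taken by gene symbol from the 19652 genes listed in the expression table. By role they were 6 genes of the mevalonate steps (HMGCS1, MVK, PMVK, MVD, IDI1 and FDPS), 11 genes of the steps by way of squalene to sterols (FDFT1, SQLE, LSS, CYP51A1, TM7SF2, MSMO1, NSDHL, HSD17B7, EBP, SC5D and DHCR7), 5 genes of the control of SREBP (SREBF1, SREBF2, SCAP, INSIG1 and INSIG2), 2 genes of sterol transport and acetyl-CoA use (STARD4 and ACAT2) and 4 genes of fatty acid synthesis (FASN, ACACA, SCD and ELOVL6). Their mRNA was measured by poly(A) RNA sequencing in wild-type A549 cells, a human lung carcinoma line often used as a model of the type II pulmonary epithelial cell. Confluent cells were kept overnight without serum or additives, moved to fresh serum-free medium, and harvested after 1, 2, 6, 12 or 24 h of IL-1β (IL1B in the labels, 1 ng/ml) plus budesonide (Bud, a synthetic glucocorticoid, 300 nM), of IL-1β alone, of budesonide alone, or of no stimulation (NS). These 4 treatments and 5 times gave 20 groups and 78 labelled libraries, with 4 libraries in 18 groups and 3 in NS at 6 h and in IL-1β-plus-budesonide at 12 h. All groups, NS included, had therefore been without serum from the night before treatment, and budesonide was given in DMSO. The labels name 4 independent experiments, and 3 at 12 h. However, 3 of the 4 groups at 12 h hold 4 libraries. Whether the libraries of those groups all come from separate experiments cannot be told from the labels. Libraries were treated as replicates of their group, so p-values measure the spread between these libraries of 1 cell line.

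Cells make cholesterol from acetyl-CoA through mevalonate, isoprenoid diphosphates, squalene and lanosterol, and make saturated and monounsaturated fatty acids from the same precursor. Many of the enzymes are under the sterol regulatory element-binding proteins, which the genes SREBF1 and SREBF2 encode. These factors are made as precursors in the endoplasmic reticulum, where SCAP escorts them to the Golgi for cleavage and the INSIG proteins hold SCAP back when sterols are plentiful. INSIG1 is itself a target of the SREBPs, and SREBF1 is also under the liver X receptors. Type II cells of the lung are known for lipid synthesis, since they make surfactant, and glucocorticoids and inflammatory cytokines are both known to act on lipid synthesis in several tissues. NF-κB, which IL-1β activates, and the glucocorticoid receptor, which budesonide activates, are the factors whose interplay the study addressed.

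Levels are given as TPM, an abundance scaled to transcript length and to the library, and changes as log2 fold changes of TPM + 0.5. A change is said to have passed where its limma p-value, adjusted by the Benjamini-Hochberg method across all 13327 genes tested, was at most 0.05 whatever its size. The threshold the study used, which in addition asks for at least a 2-fold change, is named as such. Libraries summed to between 812680 and 1009499 TPM, and the mitochondrial genes took 11.8 to 17.2% of each. The 5 epithelial markers EPCAM, KRT8, KRT18, KRT19 and CDH1 were at a median of 1 TPM or more, as were 2 of 9 markers of the alveolar type II cell (ABCA3 and NAPSA), 1 of 5 immune markers, 2 of 4 fibroblast markers and 0 of 3 endothelial markers. Most of the type II markers were thus at a median below 1 TPM, and 3 of the 9 were under 1 TPM in every library. At 6 h CXCL8, a chemokine gene that IL-1β induces, averaged 1186 ± 284 TPM with IL-1β and 2.10 ± 0.677 TPM in NS (SD, n = 4 and 3). TSC22D3, a glucocorticoid-induced gene, averaged 242 ± 14.3 TPM with budesonide and 11.4 ± 1.80 TPM in NS at the same time. Across all genes 5 libraries stood farther from their own group than the others (a distance of 0.372 to 0.549, against at most 0.330), which were replicate 2 of IL-1β-plus-budesonide at 12 h, replicate 2 of IL-1β at 24 h, replicate 3 of budesonide at 2 h, replicate 2 of budesonide at 12 h and replicate 4 of IL-1β-plus-budesonide at 1 h. That limit was set after the distances were seen. At 12 h replicate 2 was the farthest library in all 4 groups, from 0.254 in NS to 0.549 in IL-1β-plus-budesonide. SCD was also lowest in replicate 2 of each group at that time. Replicate 2 at 12 h thus deviated in every treatment, not only in the 2 groups where it is counted as far. Leaving out the far libraries kept it in NS and IL-1β, so comparisons at 12 h without them are not balanced. For most calls that leaving one of them out moved by more than 1.5 times, both values are given. Changes that did not pass are given from all libraries only. In bulk RNA a lower level can mean fewer cells with the transcript or less transcript per cell, which cannot be told apart.

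The 250 bases before the transcription start are shown for MVK, SREBF1, INSIG1, LSS and SCD, which are among the genes with the largest changes, because the factors that act on this pathway bind there. The sequences are from RefSeq on GRCh38.p14, run 5′ to 3′ in the direction of transcription and end next to the start. Capitals mark CCAAT, the letters bound by NF-Y, a partner of the SREBPs, on the strand shown. They also mark ATTGG on the strand shown, which is CCAAT on the other strand.
MVK: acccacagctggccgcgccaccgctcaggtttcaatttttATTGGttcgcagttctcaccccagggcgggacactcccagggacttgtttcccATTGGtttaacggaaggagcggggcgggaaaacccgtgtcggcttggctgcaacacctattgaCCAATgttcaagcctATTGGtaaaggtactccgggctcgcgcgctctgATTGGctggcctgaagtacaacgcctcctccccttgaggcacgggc
SREBF1: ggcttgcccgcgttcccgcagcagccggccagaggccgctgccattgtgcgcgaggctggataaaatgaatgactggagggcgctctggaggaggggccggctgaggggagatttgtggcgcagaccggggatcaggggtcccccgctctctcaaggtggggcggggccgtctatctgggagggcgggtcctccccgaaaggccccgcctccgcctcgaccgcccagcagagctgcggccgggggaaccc
INSIG1: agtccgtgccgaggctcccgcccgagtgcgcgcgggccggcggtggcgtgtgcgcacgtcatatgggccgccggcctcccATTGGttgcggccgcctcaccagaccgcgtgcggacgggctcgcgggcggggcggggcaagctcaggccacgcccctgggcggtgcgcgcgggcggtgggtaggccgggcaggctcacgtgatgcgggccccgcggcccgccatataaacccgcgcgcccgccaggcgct
LSS: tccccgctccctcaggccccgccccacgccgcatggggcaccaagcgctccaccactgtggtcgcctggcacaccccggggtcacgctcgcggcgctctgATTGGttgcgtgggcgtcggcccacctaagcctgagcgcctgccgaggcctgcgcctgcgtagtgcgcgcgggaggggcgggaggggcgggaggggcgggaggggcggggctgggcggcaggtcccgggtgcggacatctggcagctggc
SCD: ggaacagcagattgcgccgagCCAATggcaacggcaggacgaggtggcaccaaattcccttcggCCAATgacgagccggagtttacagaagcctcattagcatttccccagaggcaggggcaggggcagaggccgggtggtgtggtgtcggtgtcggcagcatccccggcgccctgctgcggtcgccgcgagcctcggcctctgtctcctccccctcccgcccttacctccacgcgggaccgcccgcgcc
They lie at chr12:109573544-109573793 (plus strand, MVK), chr17:17836987-17837236 (minus strand, SREBF1), chr7:155297628-155297877 (plus strand, INSIG1), chr21:46228775-46229024 (minus strand, LSS) and chr10:100346983-100347232 (plus strand, SCD). The start that the table gives for MVK lies within the span RefSeq lists for the gene (chr12:109573272-109598125), so another transcript starts farther upstream. MVK held 5 copies of CCAAT, SCD held 2, INSIG1 and LSS held 1 each, and none was found for SREBF1. Of the 28 genes 24 had an entry, and 16 of these 24 (66.7%) held CCAAT on either strand within 250 bases, against 32.0% of 35116 promoters of the same length. The share was 12 of 15 among the enzymes of the mevalonate and sterol steps. Each of the 24 genes was counted with 1 promoter, whereas the 35116 were taken as listed, whether or not the gene was tested here, so the shares are not on the same basis. The sterol regulatory element TCACNCCAC, searched on both strands, was found for 1 of the 24 genes, SREBF2 (0.883% of all promoters), and for 0 of the 15 enzymes. TGTTCT, which makes up part of a glucocorticoid response element, was found for PMVK (12.4% of all promoters). Such matches describe letters in a window, and nothing about binding was measured here.

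All 28 genes passed the filter on low values. Their median over the 78 libraries ran between 15.6 TPM for SCAP and 457 TPM for SCD, with 10 genes above 100 TPM and 2 below 20 TPM. After SCD, which makes monounsaturated fatty acids, the next were FDPS, the synthase of farnesyl diphosphate, at a median of 299.7 TPM and HMGCS1, which starts the mevalonate steps, at 196 TPM. SREBF1 (142 TPM) was listed at a higher level per length than SREBF2 (46.4 TPM), and INSIG1 (64.5 TPM) than INSIG2 (19.5 TPM). Replicates of a group differed by a median coefficient of variation of 7.66% across the genes (5.75 to 16.0%). The highest of the 20 group means was 3.25 times the lowest for SREBF1, 3.09 times for SCD and 2.91 times for MVK, and 1.34 times for INSIG2.

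In unstimulated cells 14.3% of the 28 genes were lower than at 1 h at some later time, beside 3.2% of all genes, and 3.57% higher, beside 3.19%. Against NS at 1 h, 4 of the 28 genes were lower at 24 h, beside 3.01% of all genes tested, and 0 higher (2.93%, and 1 gene at an unadjusted p under 0.05): MVD, -0.52 (SE 0.10, adjusted p = 0.000218), MVK, -0.33, NSDHL, -0.27, and INSIG1, -0.27. MVD decarboxylates mevalonate diphosphate, and it alone of these passed in each of the 8 fits that left out 1 library. The count of 4 was 1 without replicate 1 or 3 of NS at 1 h or replicate 4 of NS at 24 h, and 2 without replicate 2 of NS at 1 h or replicate 1 or 2 at 24 h. At 12 h ACAT2, the cytosolic acetoacetyl-CoA thiolase, was higher (0.27) and INSIG1 lower (-0.31) than at 1 h (0.683 and 0.608% of all genes). Each of these calls was lost in 6 of the 8 fits that left out 1 library. At 2 and 6 h limma called 0 genes, with 0 and 5 at an unadjusted p under 0.05. For MVD, MVK, NSDHL and INSIG1, changes over NS at 24 h were thus measured against an NS level that was itself lower than at 1 h.

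Across the 5 comparisons and 5 times 181 of the 700 changes passed (25.9%, beside 20.2% over all genes tested), 86 of them higher (12.3%, beside 9.67%) and 95 lower (13.6%, beside 10.5%). They fell in 26 of the 28 genes, beside 83% of all genes that passed in at least 1 contrast, and 20 genes passed in both directions, beside 41.2% of all genes. With the study's threshold of 2-fold, MVK with IL-1β and SREBF1 with IL-1β-plus-budesonide passed, both lower than NS at 6 h. The comparisons share libraries, so that IL-1β over NS and IL-1β-plus-budesonide over IL-1β, for example, rest on the same IL-1β libraries, and their values are set side by side below without being counted as support for one another.

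**Figure D1:**
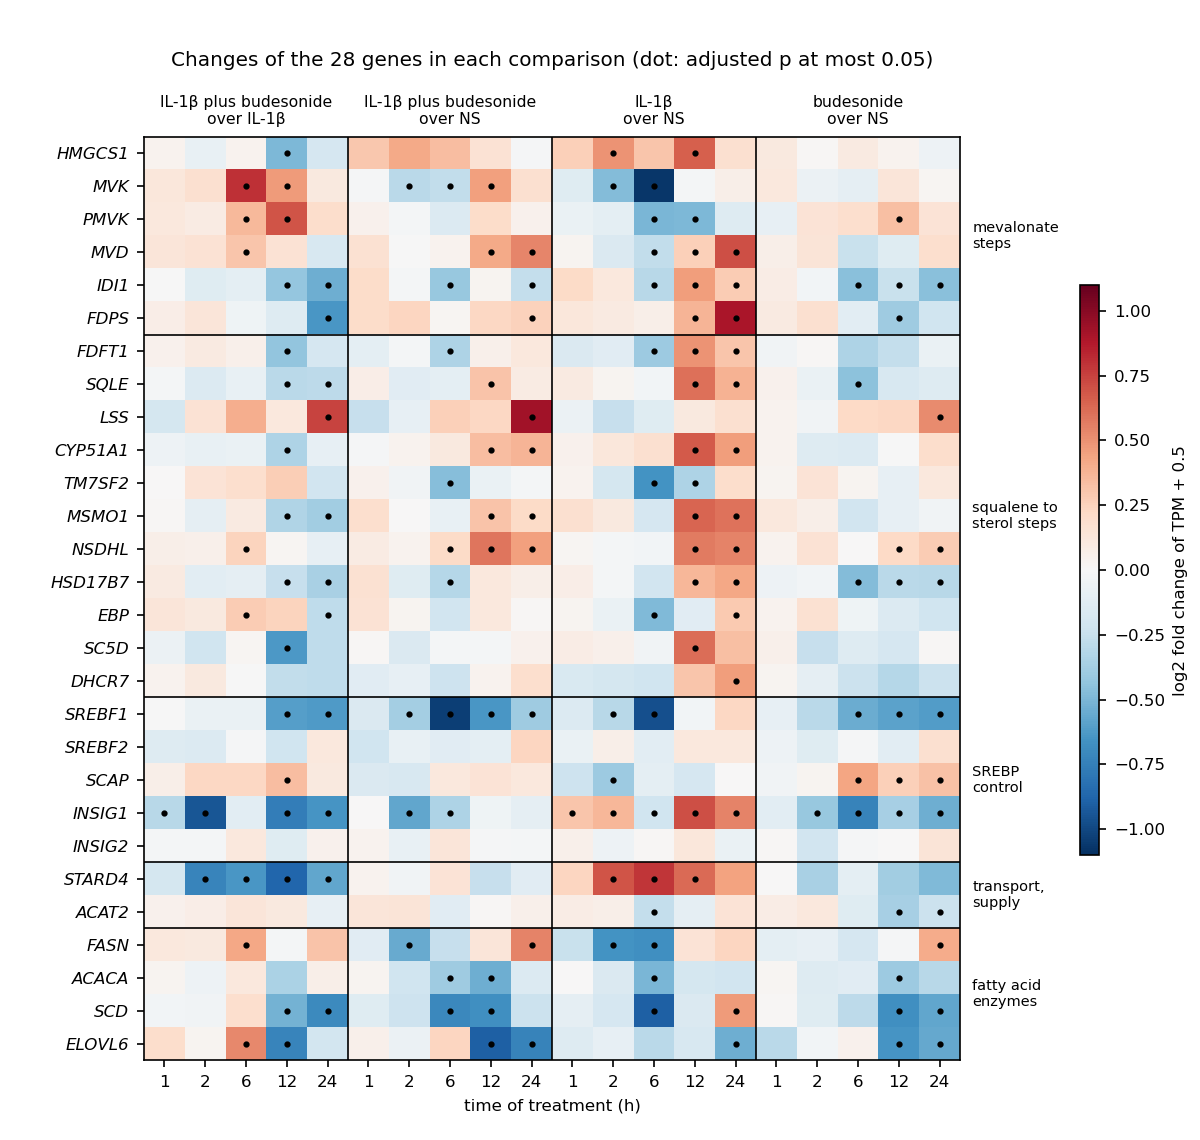
Log2 fold changes of TPM + 0.5 for the 28 genes, grouped by role (rows), at 1, 2, 6, 12 and 24 h of treatment in 4 comparisons (columns), with a dot where the adjusted p was at most 0.05. With IL-1β alone most dots at 6 h are blue (13 of 14) and most at 12 and 24 h are red (26 of 29), and with budesonide added to IL-1β most dots at 12 and 24 h are blue (23 of 27).

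With IL-1β alone the genes that passed were mostly lower than in NS at 6 h and mostly higher at 12 and 24 h. At any time 16 of the 28 genes were higher (29.3% of all genes tested) and 15 lower (38.3%), and 0 higher and 1 lower by the 2-fold threshold (7.53 and 8.8%). At 6 h 13 genes were lower and 1 higher, beside 25.5 and 19.6% of all genes, and the median change of the 28 was -0.22, against -0.07 over all genes. At 12 h 13 genes were higher and 2 lower (15.2 and 20.8% of all genes), with a median of 0.21 against -0.05. At 24 h 13 were higher and 1 lower (15.5 and 18.5%), with a median of 0.28 against -0.05. Few had passed earlier, 1 higher and 0 lower at 1 h (2.04 and 0.45%, with 1 lower at an unadjusted p under 0.05) and 3 higher and 4 lower at 2 h (8.97 and 7.59%). The 1 gene at 1 h, INSIG1, lost its call without replicate 1 or 3 of IL-1β or replicate 2 or 4 of NS. Leaving out 1 library at a time gave 9 to 15 lower genes at 6 h, 12 to 14 higher genes at 12 h and 11 to 15 at 24 h, and without the 5 far libraries 17 were higher at 24 h. The count of higher genes at 2 h was 1 without replicate 3 of NS at 2 h, and that of lower genes at 12 h was 1 without replicate 3 of IL-1β or replicate 4 of NS.

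**Figure D2:**
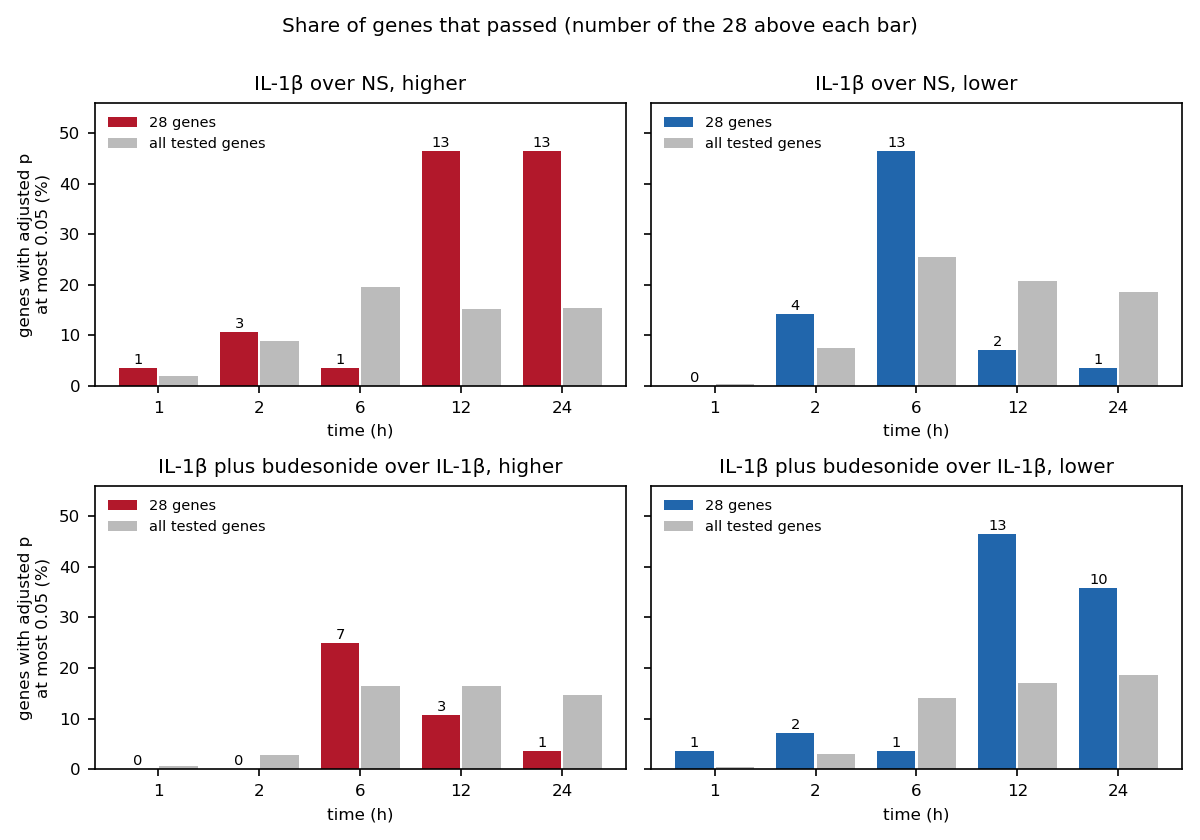
Share of genes that passed (y axis, percent) at each time (x axis, hours) for IL-1β over NS and for IL-1β-plus-budesonide over IL-1β, higher on the left and lower on the right, for the 28 genes (coloured, with their number above the bar) and all genes tested (grey). The 28 genes stood above the grey bars among lower genes at 6 h (13) and among higher genes at 12 and 24 h (13 each) with IL-1β, and among lower genes at 12 h (13) and 24 h (10) when budesonide was added to it.

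The mevalonate steps held the largest decrease, that of MVK, mevalonate kinase (chr12:109573272-109598125). At 6 h MVK was at 18.3, 15.9, 14.1 and 20.8 TPM with IL-1β and at 38.2, 36.5 and 34.8 TPM in NS, a change of -1.07 (SE 0.11, adjusted p = 3e-13). The groups did not overlap, and no library of another group or time was as low as the highest of these 4. The decrease was already present at 2 h (-0.47, SE 0.10, adjusted p = 0.000158), with 27.9, 27.2, 26.9 and 28.5 TPM for IL-1β against 37.7, 39.5, 38.7 and 38.3 TPM for NS. At 12 and 24 h the difference from NS was -0.02 and 0.07, and neither passed. At 24 h replicate 2 of IL-1β, a far library, was highest at 36.7 TPM, with the others at 26.9, 29.8 and 27.8 TPM. By the 2-fold threshold the count of 1 lower gene was 0 without replicate 3 of IL-1β at 6 h and 2 without replicate 2 of that group or replicate 4 of NS. PMVK, the kinase of the next step, was lower at 6 h (-0.50, SE 0.13, adjusted p = 0.000723) and at 12 h (-0.49, SE 0.12, adjusted p = 0.000494).

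Other genes of the mevalonate steps were higher at the late times. FDPS (chr1:155308866-155320665), whose product feeds both sterols and prenylated proteins, was at 474, 729.7, 489 and 536 TPM with IL-1β at 24 h and at 293, 316, 272 and 299 TPM in NS, a change of 0.89 (SE 0.10, adjusted p = 5.43e-12). All IL-1β libraries lay above all NS libraries, replicate 2, 1 of the 5 far libraries, stood highest, and without it the change was 0.76. MVD was higher at 24 h by 0.71 and at 12 h by 0.26, after being lower at 6 h (-0.27). With IL-1β it averaged 92.9 TPM at 12 h and 89.9 TPM at 24 h, while NS averaged 77.3 and 54.2 TPM. The larger difference at 24 h thus came with a lower NS level, not a higher level with IL-1β. The calls of MVD at 12 and 6 h were lost in 3 of 8 and 4 of 7 fits that left out 1 library. IDI1, which isomerises isopentenyl diphosphate, was likewise lower at 6 h and higher later (-0.31 at 6 h, 0.46 at 12 h and 0.28 at 24 h). Its call at 6 h was lost in 1 of 7 such fits. HMGCS1 was higher at 12 h (0.65, SE 0.17, adjusted p = 0.0016) and at 2 h (0.50, SE 0.17, adjusted p = 0.0345). The call at 2 h was lost in 6 of 8 such fits.

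The steps by way of squalene to sterols gave the most even picture at the late times. At 24 h all 11 genes had a change above 0, with a median of 0.38 against -0.05 over all genes. Of these 8 passed, beside 15.5% of all genes higher. At 12 h 7 were higher and 1 lower (15.2 and 20.8% of all genes), with a median of 0.49 against -0.05. At 6 h 3 were lower (25.5% of all genes). MSMO1, the sterol methyl oxidase, was at 152, 145, 152 and 159 TPM with IL-1β at 12 h and at 98.6, 92.5, 99.1 and 98.4 TPM in NS (0.64, SE 0.08, adjusted p = 2.52e-09), and at 138, 133, 167 and 166 TPM with IL-1β against 96.0, 93.3, 103 and 106 TPM in NS at 24 h (0.59, SE 0.08, adjusted p = 1.91e-08). The groups were apart at both times. SQLE, squalene epoxidase, was higher by 0.61 at 12 h and 0.38 at 24 h, NSDHL, a sterol dehydrogenase, by 0.57 and 0.54, CYP51A1, lanosterol demethylase, by 0.68 and 0.46, and HSD17B7, a ketosterol reductase, by 0.37 and 0.43. FDFT1, squalene synthase, was lower at 6 h (-0.40, SE 0.13, adjusted p = 0.0106) and higher at 12 h (0.49, SE 0.12, adjusted p = 0.000791). The call at 6 h was lost in 1 of 7 fits that left out 1 library. SC5D, a sterol desaturase, passed at 12 h (0.61) and DHCR7, which makes cholesterol in the last step, at 24 h (0.46). TM7SF2, a sterol reductase of the endoplasmic reticulum, differed from these, being lower at 6 h (-0.66, SE 0.13, adjusted p = 1.3e-05) and at 12 h (-0.34). Its call at 12 h was lost in 2 of 8 fits that left out 1 library. EBP, a sterol isomerase, was lower at 6 h (-0.49) and higher at 24 h (0.29), and the second value was 0.13 without the far library of that group. LSS, lanosterol synthase, passed at no time with IL-1β alone, with values between -0.25 and 0.18. At 24 h replicate 2 of IL-1β, the far library, was at 57.8 TPM. The other IL-1β libraries were at 118, 119.5 and 114 TPM, above all NS libraries (80.6 to 96.0 TPM).

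Part of the transcript sequence of some genes is shared with other genes, which makes the assignment of their reads uncertain. In GENCODE v44 transcripts 73.2% of the 31-base sequences of CYP51A1 also occur in another gene, as do 38.9% for HMGCS1, 33.2% for EBP, 23.5% for FDPS, 23.1% for HSD17B7, 19.0% for ACAT2, 16.5% for IDI1 and 13.4% for SCD.

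Among the genes that control SREBP, SREBF1 and INSIG1 moved most. SREBF1 (chr17:17811334-17836986), the gene of SREBP1, was at 59.7, 77.4, 70.5 and 65.6 TPM with IL-1β at 6 h and at 147, 139 and 116 TPM in NS (-0.96, SE 0.12, adjusted p = 4.39e-10). Each IL-1β library lay below each NS library, whereas at 12 h (-0.03) and 24 h (0.23) the groups overlapped and the difference did not pass. INSIG1 (chr7:155297878-155310235), which retains SCAP in the endoplasmic reticulum, passed at each of the 5 times with IL-1β: it was higher at 1 h (0.30, SE 0.08, adjusted p = 0.0152) and 2 h (0.37, SE 0.08, adjusted p = 0.000265), lower at 6 h (-0.22, SE 0.09, adjusted p = 0.0302), and higher again at 12 h (0.71, SE 0.08, adjusted p = 2.46e-11) and 24 h (0.55, SE 0.08, adjusted p = 4.14e-08). At 12 h it was at 102, 98.1, 106 and 99.1 TPM with IL-1β and at 65.9, 59.9, 59.8 and 61.1 TPM in NS. No IL-1β library overlapped an NS library at any of the 5 times. The values at 1 h and 6 h were the least firm, since each lost its call when 1 library was left out. SCAP was lower at 2 h (-0.40, SE 0.09, adjusted p = 0.000627).

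SREBF2 and INSIG2, the paralogues, passed in no contrast. Over the 25 contrasts limma called 0 for either gene, and at an unadjusted p under 0.05 there were 0 for SREBF2 and 1 for INSIG2. SREBF2 ranged over 29.3 to 62.3 TPM. Its 5 lowest values were those of the 5 far libraries, such as replicate 2 of IL-1β-plus-budesonide at 12 h (29.3 TPM), replicate 4 of IL-1β-plus-budesonide at 1 h (30.2 TPM) and replicate 2 of budesonide at 12 h (31.1 TPM). Its group means were 55.2 ± 4.10 TPM with IL-1β-plus-budesonide, 51.9 ± 11.7 TPM with IL-1β, 53.3 ± 7.02 TPM with budesonide and 46.9 ± 2.50 TPM in NS at 24 h (SD, n = 4 each). INSIG2 ranged over 12.1 to 23.5 TPM, and the largest of its 25 changes was -0.21 with budesonide at 2 h. In that group replicate 3, a far library, was at 12.1 TPM and the others at 18.0, 16.7 and 17.3 TPM.

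Of the 4 fatty acid genes 3 fell with IL-1β at 6 h (25.5% of all genes lower), with a median of -0.59 over the 4. At 24 h 1 was higher and 1 lower (15.5 and 18.5% of all genes), with a median of 0.01. SCD (chr10:100347233-100364826), the stearoyl-CoA desaturase, was at 245, 244, 244 and 259.7 TPM with IL-1β at 6 h and at 459, 470.4 and 458 TPM in NS (-0.90, SE 0.13, adjusted p = 4.83e-08). FASN, fatty acid synthase, was lower at 2 h (-0.66, SE 0.14, adjusted p = 0.000192) and 6 h (-0.67, SE 0.15, adjusted p = 0.000132), and ACACA, the acetyl-CoA carboxylase, at 6 h (-0.51, SE 0.14, adjusted p = 0.00217). At 24 h SCD was higher, at 777, 554, 844 and 893 TPM with IL-1β against 539, 518, 542 and 581 TPM in NS (0.47, SE 0.12, adjusted p = 0.00141), with the lowest IL-1β library, the far library, inside the NS range. ELOVL6, the elongase of saturated chains, was lower at 24 h (-0.54), a call lost without replicate 2, the far library (-0.34), or replicate 3 of IL-1β or replicate 1 or 2 of NS. STARD4, a sterol transfer protein, was higher at 2 h (0.69, SE 0.22, adjusted p = 0.0191), 6 h (0.79, SE 0.24, adjusted p = 0.00458) and 12 h (0.62, SE 0.22, adjusted p = 0.0202). The calls at 2 and 12 h were lost in 1 and 2 of 8 fits that left out 1 library. It was the gene of the 28 that was higher at 6 h, at 33.5, 35.0, 34.5 and 40.9 TPM with IL-1β and 21.1, 18.1 and 22.8 TPM in NS, and these groups did not overlap. ACAT2 was lower at 6 h (-0.26).

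**Figure D3:**
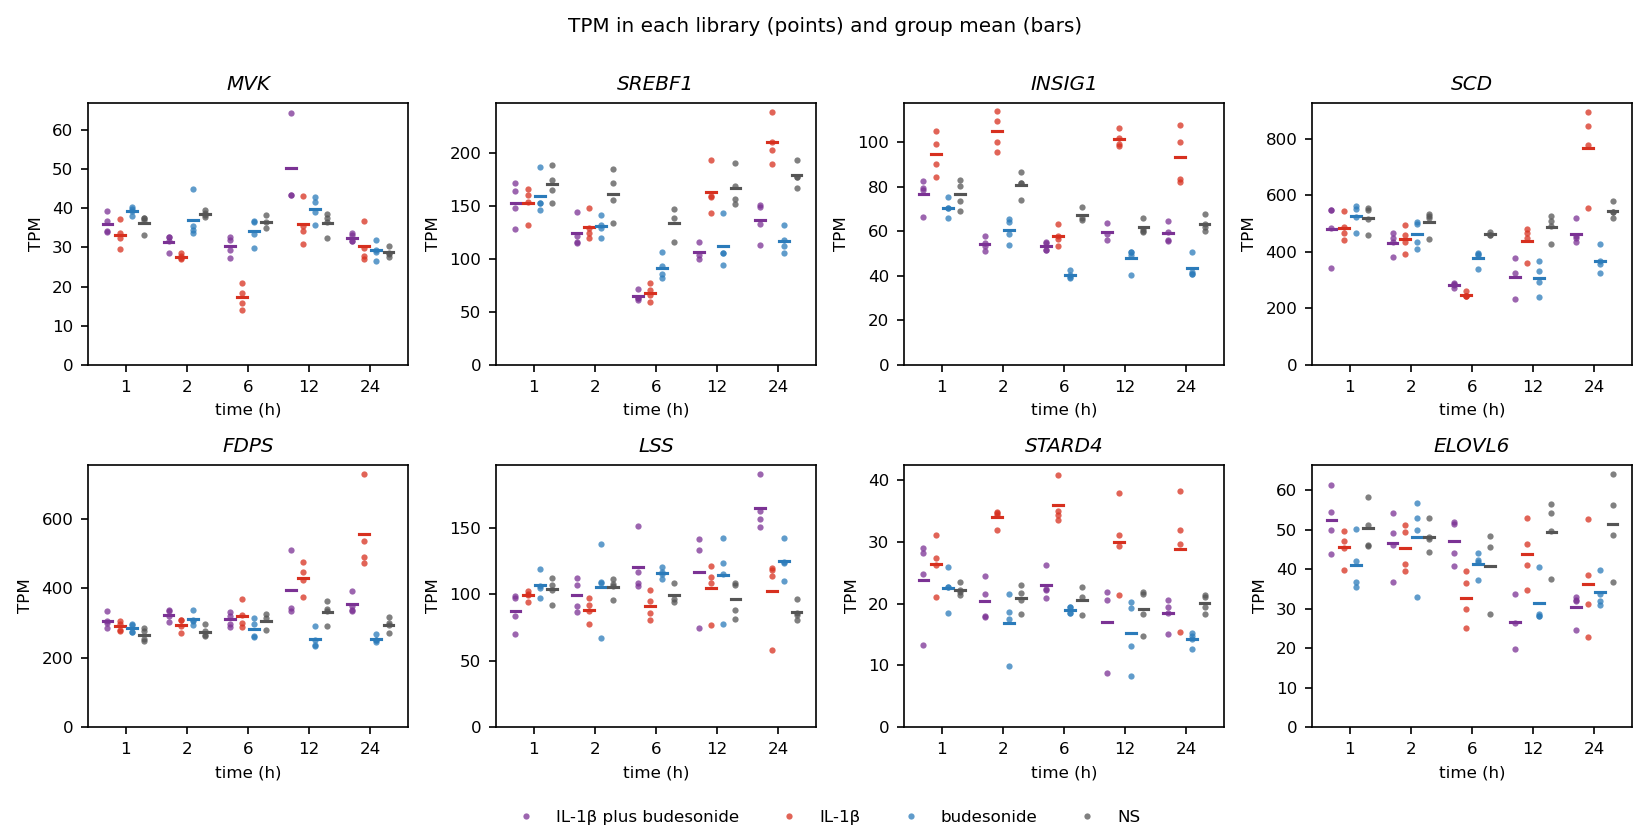
TPM in each library (points) and the group mean (bars) at 1, 2, 6, 12 and 24 h for 8 genes, with IL-1β-plus-budesonide, IL-1β, budesonide and NS side by side at each time. MVK, SREBF1 and SCD were lowest with IL-1β, alone or with budesonide, at 6 h, and INSIG1 with IL-1β alone stood above all other groups at 2, 12 and 24 h.

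Whether the IL-1β response differed between times was tested directly, by setting its change at 12 or 24 h against that at 6 h. These contrasts were chosen after the directions had been seen. At 12 h 12 of the 28 genes were higher relative to the 6 h response (4.34% of all genes) and at 24 h 17 (13.3%), and all of these calls were kept in each of the 15 fits that left out 1 library. In the other direction limma called 0 at either time, with 0 at an unadjusted p under 0.05, beside 5.0 and 13.8% of all genes called. The largest differences at 24 h were those of SCD (1.37, SE 0.18, adjusted p = 1.24e-08), SREBF1 (1.20, SE 0.16, adjusted p = 2.86e-08), MVK (1.14, SE 0.14, adjusted p = 5.5e-09), MVD (0.98, SE 0.14, adjusted p = 2.02e-07) and FASN (0.91, SE 0.20, adjusted p = 0.000364). INSIG1 differed by 0.93 at 12 h and 0.77 at 24 h. For MVD both groups moved between 6 and 24 h, NS from 69.7 to 54.2 TPM and IL-1β from 57.9 to 89.9 TPM on average.

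With budesonide alone fewer genes passed, most of them lower than NS. At any time 10 of the 28 genes were lower (25.4% of all genes) and 5 higher (22.4%), and 0 in either direction by the 2-fold threshold (6.36 and 4.87%). At 2 h 1 was lower (1.59%, or 2 without replicate 4 of NS) and 0 higher (2.02%, with 1 at an unadjusted p under 0.05), at 6 h 5 (6.65%), at 12 h 9 (15.5%) and at 24 h 7 (21.6%), and higher genes numbered 1 at 6 h (8.63%), 3 at 12 h (12.5%) and 4 at 24 h (19.5%). The 3 higher genes at 12 h were 1 without replicate 1 of NS, without replicate 3 of NS or without replicate 2 of budesonide at that time, and all 3 lost their call in at least 1 such fit. Without the 5 far libraries 8 were lower at 6 h and 11 at 24 h. With quantile normalization 8 were lower at 6 h, 12 at 24 h, and 1 was higher at 12 h. In a fit of the 12 h libraries alone 0 were higher. At 1 h limma called 0 of the 28 in either direction (0.42% of all genes higher and 0.135% lower), and 0 at an unadjusted p under 0.05.

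INSIG1 was lower with budesonide at each time of 2 h and later: -0.42 (SE 0.08, adjusted p = 0.000115) at 2 h, -0.73 (SE 0.09, adjusted p = 2.53e-10) at 6 h, -0.37 (SE 0.08, adjusted p = 0.000161) at 12 h and -0.54 (SE 0.08, adjusted p = 4e-08) at 24 h. At 6 h it was at 40.4, 42.4, 39.5 and 39.1 TPM with budesonide and 65.9, 65.1 and 71.0 TPM in NS, and the groups were apart at all 4 of these times. SREBF1 was lower at 6 h (-0.54), 12 h (-0.59) and 24 h (-0.62, SE 0.11, adjusted p = 3.79e-06), where it was at 112, 118, 131 and 105 TPM with budesonide and 177, 177, 193 and 167 TPM in NS. IDI1 was lower at the same 3 times (-0.46, -0.25 and -0.46), as was HSD17B7 (-0.48, -0.29 and -0.30). SCD at 24 h was at 367, 357, 427 and 325 TPM with budesonide and 539, 518, 542 and 581 TPM in NS (-0.57, SE 0.12, adjusted p = 9.16e-05), after -0.68 at 12 h. ELOVL6 was lower at 12 h (-0.65, SE 0.18, adjusted p = 0.00383) and 24 h (-0.56, SE 0.18, adjusted p = 0.00872), ACACA at 12 h (-0.40) and ACAT2 at 12 h (-0.36) and 24 h (-0.23). SQLE passed at 6 h (-0.45) and FDPS at 12 h (-0.39). The calls of ACACA, IDI1 and HSD17B7 at 12 h and of ELOVL6 at 24 h were lost in 1 or 2 of the 8 fits that left out 1 library.

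A few genes were higher with budesonide. SCAP was higher at 6 h (0.43, SE 0.10, adjusted p = 0.000662), 12 h (0.27) and 24 h (0.32). LSS (chr21:46188446-46228774) at 24 h was at 124, 109.8, 123 and 143 TPM with budesonide and at 96.0, 84.5, 80.6 and 86.1 TPM in NS (0.52, SE 0.17, adjusted p = 0.0105), and the groups did not overlap. NSDHL was higher at 12 h (0.22) and 24 h (0.28), PMVK at 12 h (0.33) and FASN at 24 h (0.40). The calls at 12 h and that of FASN were each lost in at least 3 of the 8 fits that left out 1 library.

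Budesonide added to IL-1β was set against IL-1β alone to see what the glucocorticoid did in cells given the cytokine. At any time 15 of the 28 genes were lower (29.4% of all genes) and 9 higher (27.8%), and 0 in either direction by the 2-fold threshold (5.6 and 5.15%), although 1 gene passed it as lower without replicate 1 or 4 of IL-1β-plus-budesonide or replicate 2 of IL-1β at 12 h. At 6 h 7 were higher and 1 lower (16.5 and 14% of all genes), at 12 h 3 were higher and 13 lower (16.5 and 17%), and at 24 h 1 was higher and 10 lower (14.7 and 18.6%). The median of the 28 was -0.26 at 12 h, against -0.03 over all genes, and -0.19 at 24 h against -0.00. At 1 and 2 h 1 and 2 genes were lower (0.383 and 3%) and 0 higher (0.518 and 2.69%, with 0 and 1 at an unadjusted p under 0.05). The call at 1 h, that of INSIG1, was lost in 6 of the 8 fits that left out 1 library and without the far libraries, and of the 2 at 2 h, INSIG1 and STARD4, that of STARD4 was lost without any of 5 of the 8. The counts at 6 and 12 h rested on single libraries: the 7 higher genes at 6 h were 3 without replicate 3 of IL-1β-plus-budesonide and 4 without replicate 2 or replicate 3 of IL-1β, and the 13 lower genes at 12 h were 7 without replicate 2 of IL-1β-plus-budesonide, 1 of the far libraries. With median-of-ratios scaling 3 genes were higher at 6 h. In a fit of the 12 h libraries alone 7 were lower. Of those 13, 4 kept their call whichever library was left out (IDI1, INSIG1, MSMO1 and SREBF1). Without replicate 1 of the cotreated group the 3 higher genes at 12 h were 6. The 1 lower gene at 6 h, STARD4, was lost without replicate 3 of IL-1β-plus-budesonide or replicate 4 of IL-1β. At 24 h 8 of the 10 kept it (FDPS, HSD17B7, IDI1, INSIG1, MSMO1, SCD, SQLE and SREBF1), and without the 5 far libraries 14 were lower and 2 higher. The 1 higher gene at 24 h became 2 without replicate 2 or 4 of IL-1β.

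INSIG1 gave the largest decrease on cotreatment. At 2 h it was at 53.2, 57.9, 54.6 and 51.2 TPM with IL-1β-plus-budesonide and 114, 109.6, 95.6 and 99.9 TPM with IL-1β (-0.94, SE 0.08, adjusted p = 5.81e-15). At 12 h it was at 63.6, 56.2 and 59.0 TPM with IL-1β-plus-budesonide against 102, 98.1, 106 and 99.1 TPM with IL-1β (-0.76, SE 0.09, adjusted p = 4.7e-11), and at 24 h at 55.8, 59.5, 64.8 and 56.1 TPM with cotreatment against 83.3, 81.9, 107 and 100.1 TPM with IL-1β (-0.65, SE 0.08, adjusted p = 5.28e-10). The groups were apart at these 3 times, whereas at 6 h they overlapped and the change of -0.12 did not pass. STARD4 was lower at 2 h (-0.73), 6 h (-0.64, SE 0.22, adjusted p = 0.0197), 12 h (-0.87, SE 0.24, adjusted p = 0.0027) and 24 h (-0.57). At 6 h its libraries were at 22.3, 22.3, 21.0 and 26.3 TPM with IL-1β-plus-budesonide and 33.5, 35.0, 34.5 and 40.9 TPM with IL-1β and did not overlap, but each of the 4 calls was lost in at least 1 fit that left out 1 library. The change at 12 h was -0.46 without the far library of the cotreated group (adjusted p = 0.175 in limma). Without all 5 far libraries the adjusted p in limma was 0.0169.

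SREBF1 was lower on cotreatment at 12 h (-0.61, SE 0.12, adjusted p = 3.56e-05) and 24 h (-0.62, SE 0.11, adjusted p = 4.77e-06). At 24 h its libraries were at 133, 151, 149 and 113 TPM with IL-1β-plus-budesonide, 202, 210.3, 238 and 189.8 TPM with IL-1β, 112, 118, 131 and 105 TPM with budesonide and 177, 177, 193 and 167 TPM in NS. Both groups given budesonide lay below both groups that were not. SCD at 24 h was at 457, 448, 521 and 433 TPM with IL-1β-plus-budesonide against 777, 554, 844 and 893 TPM with IL-1β (-0.70, SE 0.12, adjusted p = 3.04e-06), and the highest cotreated library overlapped the NS range. Its change at 12 h (-0.52) was -0.32 without the far library of the cotreated group (adjusted p = 0.0871 in limma). Without all 5 far libraries the adjusted p in limma was 0.0138. ELOVL6 at 12 h was at 33.8, 19.7 and 26.4 TPM with IL-1β-plus-budesonide and 46.5, 34.7, 52.9 and 41.1 TPM with IL-1β (-0.72, SE 0.20, adjusted p = 0.00262). Without the far library the change was -0.53 (adjusted p = 0.0658 in limma). The call was kept without all 5 far libraries.

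Among the enzymes of the sterol steps, FDPS at 24 h was at 338, 393, 334 and 347 TPM with IL-1β-plus-budesonide, 474, 729.7, 489 and 536 TPM with IL-1β, 250.2, 266, 249 and 245 TPM with budesonide and 293, 316, 272 and 299 TPM in NS. The 4 groups did not overlap, and the change on cotreatment over IL-1β was -0.64 (SE 0.10, adjusted p = 1.23e-07), or -0.50 without the far library. IDI1 was lower on cotreatment at 12 h (-0.42, SE 0.08, adjusted p = 3.97e-05) and 24 h (-0.54, SE 0.08, adjusted p = 4.13e-08). MSMO1 changed by -0.33 and -0.38, SQLE by -0.30 and -0.29, and HSD17B7 by -0.26 and -0.36 at the same times. The calls of SQLE and HSD17B7 at 12 h were lost in 1 and 3 of 7 fits that left out 1 library. HMGCS1 (-0.50), FDFT1 (-0.44), CYP51A1 (-0.34) and SC5D (-0.63) passed as lower at 12 h. Without the far library of the cotreated group the values were -0.17 for HMGCS1, -0.23 for FDFT1, -0.16 for CYP51A1 and -0.32 for SC5D. None of these 4 calls was kept without that library or without all 5 far libraries. Replicate 2 of IL-1β at 12 h stayed in these fits. Of the 11 genes of the squalene to sterol steps, 10 had a change below 0 at 24 h, 4 of which passed. At that time 18.6% of all genes were lower, and the median change over all genes was -0.00.

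The exception was LSS. At 24 h it was at 191, 150.4, 156 and 163 TPM with IL-1β-plus-budesonide, 118, 57.8, 119.5 and 114 TPM with IL-1β, 124, 109.8, 123 and 143 TPM with budesonide and 96.0, 84.5, 80.6 and 86.1 TPM in NS. All cotreated libraries lay above all others, with a change of 0.74 (SE 0.17, adjusted p = 0.000359) over IL-1β and 0.92 (SE 0.17, adjusted p = 8.21e-06) over NS. The lowest IL-1β library was the far library, and without it the change over IL-1β was 0.49.

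MVK, the gene IL-1β lowered most at 6 h, was at 29.3, 27.4, 31.9 and 32.5 TPM with IL-1β-plus-budesonide at that time, against 18.3, 15.9, 14.1 and 20.8 TPM with IL-1β (0.80, SE 0.10, adjusted p = 5.45e-10). The cotreated libraries lay between those of IL-1β and those of NS and overlapped neither, and with budesonide alone MVK was at 29.9, 33.3, 36.6 and 36.6 TPM. MVK was also higher than with IL-1β at 12 h (0.47, SE 0.11, adjusted p = 0.000314, or 0.28 without the far library). PMVK followed it at 6 h (0.36, SE 0.12, adjusted p = 0.0142) and 12 h (0.69, SE 0.13, adjusted p = 1.05e-05, or 0.45 without the far library), with the call at 6 h lost in 2 of 8 fits that left out 1 library, and SCAP was higher at 12 h (0.34). MVD, NSDHL, EBP, FASN and ELOVL6 also passed as higher at 6 h, by 0.31, 0.24, 0.28, 0.42 and 0.53, and each of these 5 lost its call in at least 1 fit that left out 1 library.

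Set against NS, cotreated cells had 9 of the 28 genes higher (27.1% of all genes) and 11 lower (33.5%) at any time, and 0 higher and 1 lower by the 2-fold threshold (7.64 and 7.92%). At 6 h 1 was higher and 9 lower (14.2 and 15.4%), at 12 h 6 and 4 (12.7 and 17.3%) and at 24 h 7 and 3 (17.3 and 20.7%). The 1 higher gene at 6 h, NSDHL, was lost in 6 of the 7 fits that left out 1 library. At 2 h 4 were lower (6.78%), or 2 without replicate 3 of NS, and 0 higher (7.7%, with 2 at an unadjusted p under 0.05). At 1 h limma called 0 in either direction (2.04% of all genes higher and 0.473% lower), with 3 higher and 0 lower at an unadjusted p under 0.05. SREBF1 at 6 h was at 62.8, 63.4, 61.5 and 71.1 TPM with IL-1β-plus-budesonide, 59.7, 77.4, 70.5 and 65.6 TPM with IL-1β, 85.7, 93.1, 106 and 82.0 TPM with budesonide and 147, 139 and 116 TPM in NS. The cotreated and IL-1β libraries overlapped, both lay below those of budesonide, and those of budesonide lay below NS. The change on cotreatment was -1.04 (SE 0.12, adjusted p = 7.37e-11), past the 2-fold threshold, which it no longer met without replicate 1 of NS at 6 h; 2 genes met it without replicate 1 of IL-1β-plus-budesonide or replicate 2 of NS at 12 h. SCD at 6 h was at 271, 287, 289 and 281 TPM with IL-1β-plus-budesonide, a change over NS of -0.71 (SE 0.13, adjusted p = 1.25e-05), above all IL-1β libraries and below all others. ELOVL6 was lower at 12 h (-0.90, SE 0.20, adjusted p = 0.000202, or -0.70 without the far library) and 24 h (-0.73, SE 0.18, adjusted p = 0.000674). Higher at 24 h were LSS, FASN (0.55), MVD (0.53), NSDHL (0.45), CYP51A1 (0.37), FDPS (0.26) and MSMO1 (0.21). The calls of FDPS and MSMO1 were lost in 3 and 4 of the 8 fits that left out 1 library.

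What IL-1β added in the presence of budesonide was read from cotreatment over budesonide, in which 11 genes were higher (17.5% of all genes) and 6 lower (20.3%) at any time, and 0 in either direction by the 2-fold threshold (4.91 and 2.57%). At 1 h limma called 0 (1.73% of all genes higher and 0.21% lower), with 1 higher and 0 lower at an unadjusted p under 0.05, and at 2 h 1 gene, FASN, was lower and 0 higher (4.06 and 7.08%, with 1 higher at an unadjusted p under 0.05), a call lost without replicate 2 or 4 of budesonide or replicate 3 of IL-1β-plus-budesonide. At 6 h 4 were higher and 5 lower (12.9 and 16.5%). At 12 h 10 were higher (5.06%) and at 24 h 8 (5.67%), and limma called 0 lower at both times (4.6 and 5.61%), with 0 and 1 at an unadjusted p under 0.05. The medians were 0.21 and 0.19, against -0.04 and -0.03 over all genes. At 12 h FDPS (0.62, SE 0.10, adjusted p = 5.03e-06), MVD (0.56, SE 0.11, adjusted p = 8.64e-05), SQLE (0.49, SE 0.08, adjusted p = 5.97e-06) and HSD17B7 (0.41, SE 0.09, adjusted p = 0.00106) changed most. Without the far library of the cotreated group FDPS was higher by 0.43 and MVD by 0.35. All 11 genes of the squalene to sterol steps had a value above 0 at 12 h, where the median over all genes was -0.04. Of the 10 genes 6 kept their call whichever library was left out. The 4 higher genes at 6 h were 2 without replicate 2 of budesonide or replicate 4 of IL-1β-plus-budesonide, and the 8 at 24 h were 5 without replicate 1 of budesonide or replicate 3 of IL-1β-plus-budesonide, and 14 without the 5 far libraries. In fits of 1 time alone 5 were higher at 12 h and 5 at 24 h. SREBF1 was lower at 6 h (-0.50, SE 0.11, adjusted p = 0.000266), as were SCD (-0.42), TM7SF2 (-0.50), SCAP (-0.32) and PMVK (-0.33), the last lost in 4 of the 8 fits that left out 1 library.

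Whether the change on cotreatment equalled the sum of the single changes on the log2 scale was tested by an interaction term. At any time 8 of the 28 genes lay above the sum (13.3% of all genes) and 4 below it (11.6%). At 6 h 7 lay above it (4.52%), with MVK (0.90, SE 0.14, adjusted p = 3.1e-06), INSIG1 (0.61, SE 0.12, adjusted p = 8.92e-05) and MVD (0.55, SE 0.14, adjusted p = 0.00586) kept in each fit that left out 1 library, and FASN, HSD17B7, SQLE and IDI1 (0.61, 0.38, 0.37 and 0.35) not. The count of 7 was 4 without replicate 2 of IL-1β at 6 h, and also without replicate 3 of IL-1β, replicate 4 of NS or replicate 4 of IL-1β-plus-budesonide, and 11 without the 5 far libraries. Below the sum at this time limma called 0 (5.44%), with 0 at an unadjusted p under 0.05. INSIG1 lay below the sum at 2 h (-0.52, SE 0.11, adjusted p = 0.00273), beside 0.645% of all genes, where IL-1β alone raised it and budesonide alone lowered it, and cotreated cells held 53.2, 57.9, 54.6 and 51.2 TPM against 64.2, 65.4, 53.8 and 58.5 TPM with budesonide alone, which overlapped. At 12 h it lay below the sum (-0.40) and ACAT2 above it (0.47, SE 0.11, adjusted p = 0.00139), beside 5.19 and 5.6% of all genes. Up to 3 genes lay above the sum at 12 h without 1 library (replicate 1 of IL-1β-plus-budesonide), and 2 below it without replicate 2 of budesonide. FDPS (-0.42, or -0.28 without the far library), MSMO1 (-0.34) and NSDHL (-0.37) lay below it at 24 h (7.32%), and the count of 3 was 1 without replicate 2 of IL-1β, the far library, and 5 without the 5 far libraries.

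How far the genes moved together was described by Pearson's r of their mean log2 values over the 20 groups, which share libraries, normalization and time course. Among the 17 enzymes of the mevalonate and sterol steps the median r was 0.44 over 136 pairs, of which 109 were above 0 (-0.64 to 0.93). Among the 4 fatty acid enzymes it was 0.41 over 6 pairs, between the sterol and the fatty acid enzymes 0.20 over 68 pairs, and over all pairs of tested genes 0.0126. INSIG1 ran closest to IDI1 (0.85), HSD17B7 (0.78) and FDFT1 (0.69), and opposite to SCAP (-0.63), PMVK (-0.53) and LSS (-0.44). Within groups, as deviations of the 78 libraries from their group means, the median r of the sterol enzymes was 0.17, or 0.22 over the 73 libraries left without the far ones.

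**Figure D4:**
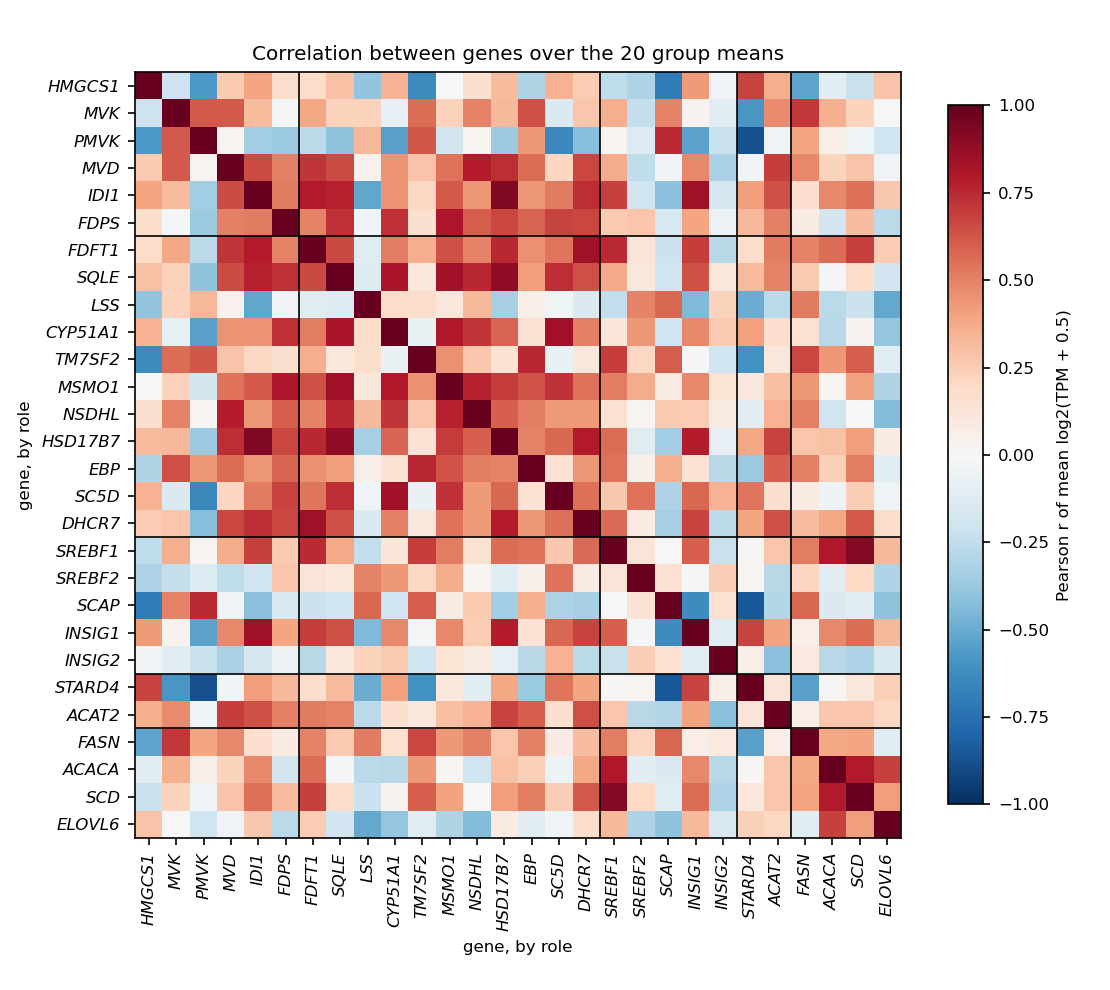
Pearson's r between each pair of the 28 genes over the 20 group means of log2(TPM + 0.5), on both axes in order of role, with lines between roles. Most pairs among the sterol enzymes are red (109 of 136 above 0), while PMVK, LSS and SCAP are blue against INSIG1 (-0.53, -0.44 and -0.63).

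A list of 44 other genes of sterol and fatty acid metabolism was set beside the 28. Of its 40 genes that were tested, 15 were higher and 18 lower with IL-1β at any time (37.5 and 45%, beside 29.3 and 38.3% of all genes). With budesonide 14 were higher and 13 lower (35 and 32.5%, beside 22.4 and 25.4%), and 11 and 12 on cotreatment relative to IL-1β (27.5 and 30%, beside 27.8 and 29.4%). By the 2-fold threshold 9 of them passed. With IL-1β 2.5% of the 40 were higher and 5% lower by it, beside 7.53 and 8.8% of all genes. With budesonide the shares were 7.5 and 2.5% (4.87 and 6.36%), and on cotreatment over NS 10 and 0% (7.64 and 7.92%). Over IL-1β they were 12.5 and 2.5% (5.15 and 5.6%), and over budesonide 0 and 2.5% (4.91 and 2.57%). Each value given next had an adjusted p of at most 0.05 in limma. The largest change was that of ACSL1, a long-chain acyl-CoA synthetase, which was higher with budesonide at 6, 12 and 24 h by 2.46, 2.53 and 2.86 and on cotreatment at 24 h by 3.18 over NS. ACACB, the mitochondrial acetyl-CoA carboxylase, was lower with IL-1β at 6 h (-1.48) and higher on cotreatment than with IL-1β (1.74). MLXIPL, a carbohydrate-responsive factor of lipid synthesis, was lower with IL-1β at 6 h (-1.40) and 12 h (-1.26), and TMEM97, a sterol-responsive membrane protein, was lower with budesonide at 24 h (-1.26). ABCA1, a cholesterol exporter, was higher than NS at 24 h with IL-1β-plus-budesonide (1.29), IL-1β (1.11) and budesonide (1.33), OSBPL5, an oxysterol-binding protein, was higher with budesonide at 24 h (1.07), and ABCG1, another exporter, was higher on cotreatment at 2 h (1.03 over NS).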

How the data were processed

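Cells were treated, sequenced and quantified as the labels and the study's methods describe: stranded poly(A) libraries, kallisto quantification against GRCh38 (hg38) and gene-level TPM from sleuth. The deposited TPM values, treated here as a signal because library sums differ, had been rescaled by the authors across libraries, and hold no counts. A sequencing depth is stated in the study's methods but cannot be computed per library from these values, and no counting error is given. The table held 79 libraries, of which 1 could not be matched to the labels and was not used. A table of the authors' own fold changes and adjusted p-values was not used. Symbols were matched exactly, and some genes are not reported here.

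Genes at 1 TPM or more in at least 3 libraries were kept (13327 tested, 6325 removed). limma 3.58.1 in R 4.3.3 was fitted to log2(TPM + 0.5) of all 78 libraries with 1 mean per group and a trended variance (58 residual degrees of freedom), two-sided, with Benjamini-Hochberg adjustment over genes within each contrast. The pseudocount makes the changes of low genes smaller. The procedure was tested on simulated data for IL-1β over NS at 6 h, with 50 genes at each size of effect. Where the true ratio was 1.25, limma called 4 genes. It called 30 where the ratio was 1.5, and 47 where it was 2. Small effects were thus mostly missed, and a gene that did not pass may still differ by such an amount. The 28 genes and the other lists were chosen with earlier results of these data known. Libraries are described one by one for the 2 genes past the 2-fold threshold, the 8 with the largest changes, and INSIG1, INSIG2, SREBF1 and SREBF2, and in addition for MSMO1, which was chosen after its values were seen. From the list of other genes at most 8 past that threshold are named. Alternatives were 2 other scalings (median-of-ratios and quantile), pseudocounts of 0.1 and 1, no filter (18920 genes), a mean of at least 5 TPM, the replicate number as a block, a fit of 1 time only, and leaving out the 5 far libraries or each library in turn.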

Additional observations from a re-analysis of the deposited data

Results flagged for a closer look

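Within groups of 4 libraries, 15 of 180 sets of values (10 genes described library by library, 18 groups) held a library whose gap to its nearest neighbour, as a share of the group's range, was above Dixon's critical value for 4 samples, where chance alone would give about 9. The high ones were MVK in replicate 3 of budesonide at 2 h (44.8 TPM, next 35.3, share 0.848), SREBF1 in replicate 2 of budesonide at 1 h (186 and 153 TPM, 0.834), INSIG1 in replicate 3 of budesonide at 24 h (50.5 and 41.7 TPM, 0.903), SCD in replicate 4 of IL-1β at 6 h (259.7 and 245 TPM, 0.898), ELOVL6 in replicate 3 of budesonide at 12 h (40.4 and 28.6 TPM, 0.961), INSIG2 in replicate 4 of NS at 1 h (21.9 and 18.6 TPM, 0.85) and SREBF2 in replicate 1 of NS at 1 h (47.0 and 44.9 TPM, 0.875). The low ones were MVK in replicate 4 of NS at 1 h (33.1 TPM, next 36.9, share 0.854), INSIG1 in replicate 2 of budesonide at 12 h (40.5 and 49.5 TPM, 0.875), LSS in replicate 2 of IL-1β at 24 h (57.8 and 114 TPM, 0.903), SCD in replicate 4 of budesonide at 6 h (339 and 389 TPM, 0.913), ELOVL6 in replicate 1 of IL-1β-plus-budesonide at 24 h (24.6 and 31.8 TPM, 0.879), STARD4 in replicate 4 of IL-1β at 2 h (32.0 and 34.5 TPM, 0.863), SREBF2 in replicate 2 of IL-1β at 24 h (34.4 and 56.5 TPM, 0.92) and SREBF2 in replicate 2 of budesonide at 12 h (31.1 and 46.5 TPM, 0.906). Replicate 2 of IL-1β at 24 h, replicate 2 of budesonide at 12 h and replicate 3 of budesonide at 2 h are among the 5 libraries that stood far from their group over all genes, and their part in these values was not tested further than by leaving them out.

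The response to a treatment differed between 6 h and a later time, by the test of the difference itself, in 15 cases among these genes. For IL-1β over NS the response minus that at 6 h was 1.05 at 12 h and 1.14 at 24 h for MVK, 0.93 and 1.20 for SREBF1, 0.93 and 0.77 for INSIG1, 0.74 and 1.37 for SCD, and 0.83 at 24 h for FDPS (log2). For IL-1β-plus-budesonide over NS it was 0.72 at 12 h and 0.44 at 24 h for MVK, -1.13 and -0.97 for ELOVL6, 0.65 at 24 h for SREBF1 and 0.48 at 24 h for SCD. The SCD value on cotreatment lost its call in 13 of the 15 fits that left out 1 library.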

How the results depend on the processing

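Counts over any time were within 1.5 times the values in the report under most alternatives. The exceptions were, with IL-1β over NS by 2-fold, 3 lower genes with quantile normalization and 2 with the replicate block (1 in the report); with budesonide over NS, 3 higher genes in the fit of 1 time only (5) and 16 lower genes with quantile normalization (10); with cotreatment over budesonide, 17 higher genes without the 5 far libraries (11); for the interaction, 2 genes below the sum with quantile normalization and 7 without the far libraries (4); and for NS at 24 h over 1 h, 1 higher gene with the replicate block (0) and 2 lower genes with median-of-ratios scaling (4). The cause was not tested. No direction reversed among the 245 gene-level calls. Leaving out 1 library gave 15 to 17 higher and 11 to 17 lower genes for IL-1β over NS (0 to 2 lower by 2-fold), 4 to 5 and 9 to 12 for budesonide over NS, 8 to 10 and 9 to 11 for cotreatment over NS (0 to 2 lower by 2-fold), 5 to 10 and 10 to 18 for cotreatment over IL-1β (0 to 1 lower by 2-fold), 10 to 13 and 5 to 6 for cotreatment over budesonide, 5 to 10 above and 2 to 5 below the sum, and 1 to 4 lower genes for NS at 24 h; relative to the 6 h response to IL-1β, 12 to 14 and 17 to 18 genes were higher. Where a group was left with fewer libraries its spread was taken from all groups.

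Of the 245 gene-level calls, 25 were lost with median-of-ratios scaling, 28 with quantile normalization, 13 with no filter, 13 without the far libraries, 43 in the fit of 1 time only and 92 in at least 1 fit that left out 1 library. Libraries that shared a replicate number deviated together in 111 of 114 pairs (r above 0.1, -0.119 to 0.828, median 0.266) and 111 correlated best with their own number, a hint from the data and not the design. With the replicate block 0 of the 245 calls were lost, and further calls were gained in several comparisons. At any time it gave 14 lower genes with budesonide over NS (10 in the report). Cotreatment gave 17 lower genes over IL-1β (15) and 13 higher over budesonide (11). The files hold no read counts, so the precision given here rests on the spread between libraries.

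Counts at single times moved by more than 1.5 times as follows, with the report's count in parentheses. With median-of-ratios scaling, IL-1β over NS gave 2 higher genes at 6 h (1) and 1 lower at 12 h (2), cotreatment over NS 1 higher at 2 h (0) and 0 at 6 h (1), and cotreatment over IL-1β 3 higher at 6 h (7). With quantile normalization, budesonide over NS gave 8 lower at 6 h (5), 12 lower at 24 h (7) and 1 higher at 12 h (3), cotreatment over NS 0 higher at 6 h (1) and 3 at 12 h (6), cotreatment over IL-1β 2 higher at 24 h (1), cotreatment over budesonide 2 higher at 6 h (4), and the interaction 11 above the sum at 6 h (7), 2 at 12 h (1) and 1 below it at 24 h (3). With the replicate block, budesonide over NS gave 2 lower at 2 h (1) and 8 at 6 h (5), cotreatment over NS 2 higher at 2 h (0), and NS at 24 h 1 higher (0). In the fit of 1 time only, IL-1β over NS gave 0 higher at 1 h (1), 2 higher at 6 h (1), 1 lower at 12 h (2) and 0 lower at 24 h (1), budesonide over NS 0 higher at 12 h (3), cotreatment over NS 1 higher at 2 h (0) and 2 at 6 h (1), cotreatment over IL-1β 0 lower at 1 h (1) and 7 at 12 h (13), cotreatment over budesonide 0 lower at 2 h (1), 5 higher at 12 h (10) and 5 at 24 h (8), and the interaction 1 below the sum at 6 h (0), 0 above and 0 below at 12 h (1 and 1) and 1 below at 24 h (3). With no filter, cotreatment over NS gave 0 higher at 6 h (1). Without the 5 far libraries, beside the counts in the report, IL-1β over NS gave 2 higher at 6 h (1), cotreatment over NS 1 higher at 1 h (0), 2 at 2 h (0) and 2 at 6 h (1), cotreatment over budesonide 1 higher at 1 h (0) and 2 lower at 2 h (1), and the interaction 1 below the sum at 6 h (0), 2 at 12 h (1) and 5 at 24 h (3).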
